A study of Arabidopsis thaliana with 12 samples.

Results

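Transcripts were compared between dark-grown seedlings of 2 genotypes of Arabidopsis thaliana, namely Col-0 as the wild type and b''ab''b as the double mutant, without any light treatment at the end of growth. The comparison was chosen by the sample labels and takes 6 of the 12 libraries of the series, 3 of the wild type and 3 of the double mutant, and all gene rows of the count table. Seeds of all groups were plated on MS medium without sucrose, kept cold in the dark for 3 days, given white light for 3 h at 25 µmol per square metre per second and then wrapped in foil for 4 days at 22 °C. The other 6 libraries, 3 of each genotype, come from seedlings that afterwards received red light for 1 h at 8 µmol per square metre per second, and they enter here as libraries in which a difference seen in the dark can be read again. Libraries were made from total RNA of whole seedlings by a 3′ tag method, which reads transcripts close to their 3′ ends. The sources used here give neither the mutant alleles and their positions nor the number of lines or the history of crossing. Nothing in the labels says that the 3 replicates of a group were separate cultures. The p-values set a difference only against the spread among libraries within groups, and that spread may be technical.

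Protein phosphatase 2A (PP2A) removes phosphate from serine and threonine residues of many proteins. Its core of a catalytic and a scaffold subunit is directed to its targets by one of several families of regulatory B subunits, and the B'' family binds calcium through EF-hand motifs. In Arabidopsis B''α and B''β are known to bind HMG-CoA reductase, the enzyme that commits carbon to the mevalonate pathway of sterol synthesis. Seedlings kept in the dark are etiolated: they live on seed reserves, elongate the hypocotyl, keep the cotyledons closed and hold plastids that have not greened.

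The 6 dark libraries held 2874429 to 4979055 counts, and levels are given as CPM, counts scaled to a common library size by edgeR. Enough counts for a test were found for 18487 genes. A count of 0 allows a level of 3 counts, or 0.578 to 1.02 CPM in the dark libraries, and covers counting error only because the reads carry no molecular identifiers. Transcripts known from etiolated tissue were present. PORA and PORB, protochlorophyllide reductases that build up in the dark, stood at 1877 to 2116 CPM and 1992 to 2123 CPM in the 6 dark libraries. Their red light levels are not given here, so these values do not show a difference from red light. The 22 light-harvesting genes summed to 46601 to 53213 CPM in the 6 dark libraries, against 65395 to 69957 CPM in the 6 red light libraries.

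The dark difference between the genotypes was small in number of genes. Of 18487 genes 10 passed an adjusted p under 0.05 with edgeR's quasi-likelihood test (0.0541% of those tested), 5 higher in the double mutant (0.027%) and 5 lower (0.027%). At an unadjusted p under 0.05 there were 743 genes (4.02%), 356 higher (1.93%) and 387 lower (2.09%). The 3 libraries of one genotype did not overlap with the 3 of the other for 1628 genes (8.81%), 794 higher in the mutant (4.29%) and 834 lower (4.51%). The median difference over all tested genes was −0.01 on the log2 scale. In simulated counts for this comparison 200 of 18487 genes were changed, all of them with a mean of at least 10 CPM. The same fit recovered 98% of changes of 1 on the log2 scale and 36% of changes of 0.5. These shares do not cover genes under 10 CPM. Each gene was drawn independently, so libraries that stand apart over many genes were not simulated.

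**Figure D1:**
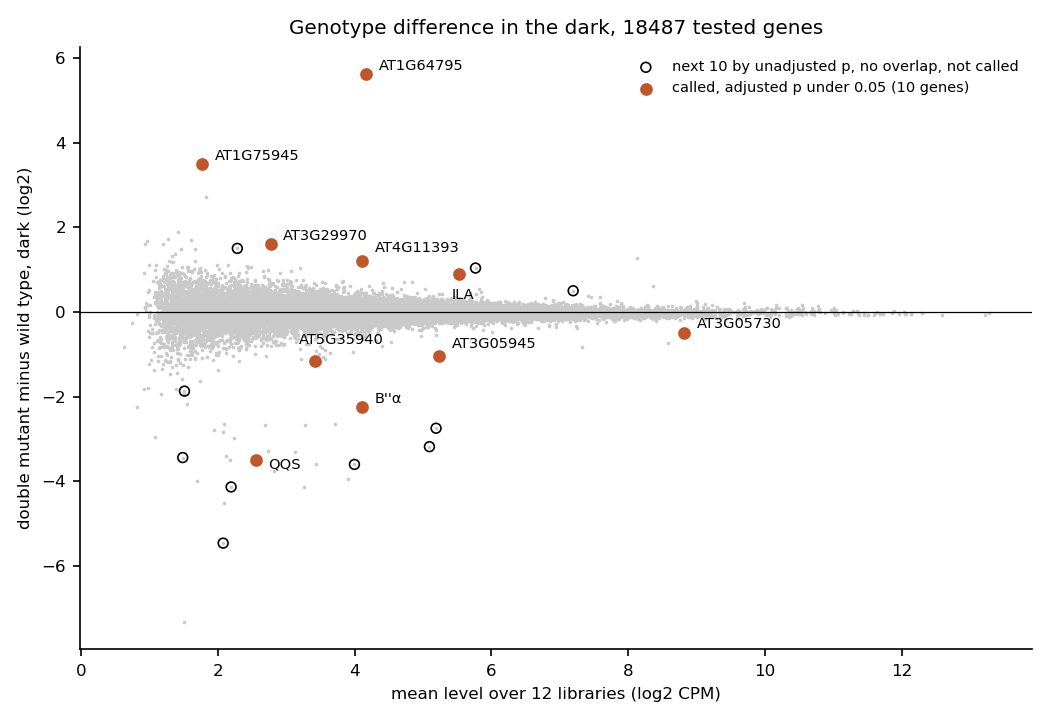
Each point is a tested gene, with its mean level over the 12 libraries (log2 CPM) on the x axis and the double mutant minus wild type difference in the dark (log2) on the y axis. The 10 called genes are filled and labelled, and open circles mark the 10 genes that come next by unadjusted p without overlap between genotypes.

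B''α (AT5G44090), on chromosome 5 from 17742765 to 17748526 in the TAIR10.1 build, fell in the double mutant. It stood at 31.2, 28.1 and 24.4 CPM in wild type dark libraries 1 to 3 and at 5.09, 6.29 and 6.12 CPM in double mutant dark libraries 1 to 3. Every mutant library lay below every wild type library, with a wide gap between the groups. The means were 27.9 ± 3.39 and 5.83 ± 0.652 CPM (SD, n = 3), a log2 difference of −2.24 ± 0.16 (SE, edgeR adjusted p = 2.63e-08). In bulk libraries fewer cells that express a gene and less RNA per cell cannot be told apart. Reads remained in all 3 mutant libraries, 15, 28 and 31 of them.

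The B''β gene (AT1G03960, chromosome 1, 1013643 to 1017957) had few reads, and its difference did not pass. It stood at 3.85, 4.96 and 3.76 CPM in the wild type and at 1.02, 0.899 and 1.38 CPM in the double mutant. The groups did not overlap, yet the 3 mutant libraries together held 14 counts against 50 in the wild type. That is a ratio of 3.71 (95% exact interval 2.02 to 7.26, counting error only), and the fitted log2 difference was −1.87 ± 0.42 (edgeR adjusted p = 0.226). With every gene kept, whatever its count, it passed (edgeR adjusted p = 0.0308). That fit called 69 genes in the dark, beside 10 in the main fit, so a pass there asks less. Because the disrupted positions are not given, a tag downstream or outside of them would not check the genotype.

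No other PP2A gene was called. Of 28 listed subunits and associated proteins all 28 were tested, B''α was called, and the median difference was −0.03. At an unadjusted p under 0.05 only B''α and B''β were lower and none was higher (all genes 2.09% and 1.93%). AT1G54450, an EF-hand gene of the same family, stood at 4.04, 4.96 and 4.07 CPM in the wild type and at 3.05, 4.49 and 3.36 CPM in the mutant, which overlap (log2 −0.24 ± 0.29). The catalytic subunit gene PP2A-1, with the smallest p of the others, was at 28.7, 25.1 and 22.2 CPM against 27.8, 32.1 and 31.0 CPM (log2 0.25 ± 0.13).

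The largest difference among the called genes lay at AT1G64795, annotated as coding for an uncharacterized protein of unknown role. It stood at 0.578, 0.552 and 1.252 CPM in the wild type and at 41.0, 36.4 and 37.5 CPM in the double mutant. The wild type libraries were at the detection limit with 2 to 4 counts each, and the mutant libraries held 121, 162 and 190. The pooled ratio of 473 to 9 counts is 50.65-fold (95% exact interval 26.5 to 111.5, counting error only), and the fit gave a log2 difference of 5.61 ± 0.26 (edgeR adjusted p = 4.01e-12). The gene is shown here because it lies inside another called gene. It occupies chr1:24082579-24082848 on the plus strand, 270 bases within ILA (AT1G64790) on the minus strand (chromosome 1, 24064822 to 24083428). Of these, 201 bases lie in annotated exons of AT1G64795. The string below is therefore genomic sequence, and the bases outside those exons are not marked in it. Capitals mark the 142 bases (24082579 to 24082720) that overlap an ILA exon on the opposite strand. The sequence is RefSeq's TAIR10.1.
AT1G64795: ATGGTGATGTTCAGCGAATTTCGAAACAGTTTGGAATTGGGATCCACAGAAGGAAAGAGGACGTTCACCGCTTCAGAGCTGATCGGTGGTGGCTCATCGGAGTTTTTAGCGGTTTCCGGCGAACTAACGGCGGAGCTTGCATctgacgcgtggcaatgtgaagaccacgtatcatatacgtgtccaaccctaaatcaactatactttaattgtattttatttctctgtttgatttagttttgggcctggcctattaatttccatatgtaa

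ILA, which encodes a HEAT-repeat protein related to yeast GCN1 and needed for plant immunity, rose as well. It stood at 32.7, 32.3 and 35.4 CPM in the wild type and at 59.3, 57.3 and 67.7 CPM in the double mutant. The lowest mutant library lay well above the highest wild type library, and the means of 33.5 ± 1.68 and 61.4 ± 5.52 CPM (SD, n = 3) differ 1.85-fold (log2 0.89 ± 0.11, edgeR adjusted p = 1.80e-04). AT1G64795 ends 580 bases from the annotated start of ILA and begins 17757 bases from its 3′ end. The sources used here do not say whether counting used strand, so how reads in the overlap of both genes were assigned is unknown.

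**Figure D2:**
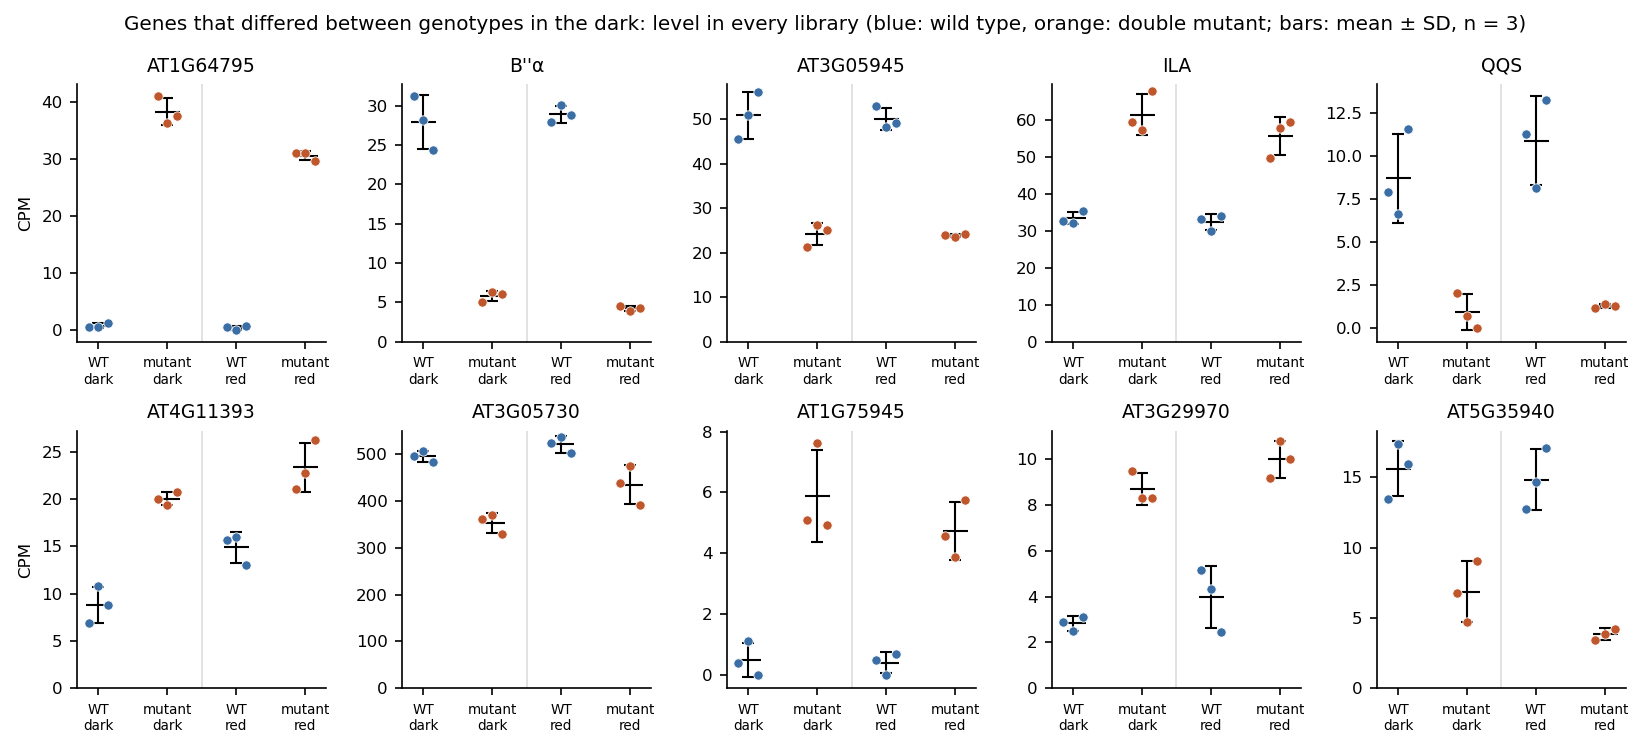
Level in CPM (y axis) of the 10 called genes in every library, by genotype and light (x axis), with the mean and SD of 3 libraries as bars. In all 10 genes the wild type (blue) and mutant (orange) points do not overlap in the dark, nor in red light.

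On chromosome 3 the lncRNA gene AT3G05945, the B12D gene AT3G29970 and QQS (AT3G30720) were called within an interval of 839.8 kb (11510090 to 12349933). AT3G05945, a non-coding RNA of unknown role, stood at 45.6, 51.0 and 56.0 CPM in the wild type and at 21.4, 26.3 and 25.1 CPM in the double mutant. It fell 2.06-fold with no overlap (log2 −1.045 ± 0.11, edgeR adjusted p = 3.64e-05). AT3G29970 codes for a member of the B12D family, small proteins named from a barley grain transcript. It stood at 2.89, 2.48 and 3.13 CPM in the wild type and at 9.49, 8.31 and 8.29 CPM in the mutant. All mutant libraries were higher, by 1.597 ± 0.27 on the log2 scale (edgeR adjusted p = 0.0145). The call was lost under 7 of 21 alternatives (adjusted p up to 0.126), among them limma-voom (0.0587) and the fits without wild type library 1 (0.0645), double mutant library 1 (0.0877) or double mutant library 2 (0.0556).

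QQS, an orphan gene of Arabidopsis thaliana that affects the division of carbon and nitrogen between starch and protein, fell to near the detection limit in the mutant libraries. It stood at 7.90, 6.62 and 11.6 CPM in the wild type and at 2.04 and 0.674 CPM in double mutant libraries 1 and 2, with no count in library 3. A count of 0 allows up to 0.592 CPM in that library. With 102 counts in the wild type and 9 in the mutant the ratio was 11.8 (95% exact interval 5.96 to 26.4, counting error only), and the fitted log2 difference was −3.496 ± 0.49 (edgeR adjusted p = 0.00121). It was −4.63 without double mutant library 1 and −2.77 without double mutant library 3, and the call was lost in a fit of only the 6 dark libraries with a replicate block (adjusted p = 0.0884). Within the interval 14 genes were tested, of which these 3 passed and the other 11 had an unadjusted p above 0.05. The ends of the interval were set by these called genes, so the share called within it depends on that choice. BR6OX2, a brassinosteroid synthesis gene between AT3G29970 and QQS, was at 42.7, 38.1 and 39.1 CPM in the wild type and at 45.8, 43.8 and 43.0 CPM in the mutant (log2 0.13 ± 0.10, chosen after its values were seen).

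Short secreted peptides and a lectin made up most of the other calls. AT4G11393, a defensin-like gene, stood at 6.93, 10.8 and 8.77 CPM in the wild type and at 20.01, 19.3 and 20.7 CPM in the double mutant (log2 1.21 ± 0.18, edgeR adjusted p = 0.00193). AT3G05730, a second defensin-like gene, moved the other way, from 494, 506 and 482 CPM to 360.1, 369.9 and 328 CPM (log2 −0.49 ± 0.07, edgeR adjusted p = 0.00286). In both genes the spread of 3 libraries was small beside the gap between genotypes. The call of AT4G11393 was lost under 2 of 21 alternatives, without both dark libraries that stand apart (edgeR adjusted p = 0.0738) and with only the 6 dark libraries and a replicate block (0.0883). That of AT3G05730 was lost under the latter (0.105). All genes annotated as defensin-like form a group chosen after values were seen, of which 12 of 113 were tested. These 2 were called (all genes 0.0541%), and the median difference was 0.13. At an unadjusted p under 0.05, 3 were higher and 4 lower (all genes 1.93% and 2.09%). AT3G05730 was the most abundant of the called genes, and an annotated RNA gene on its opposite strand, AT3G01735, covers its first 210 bases. Defensin-like genes form a large family of related sequences, and how reads that match several genes were counted is unknown here, which makes the split of counts within the family uncertain.

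AT5G35940, a gene for a mannose-binding lectin of the jacalin type, stood at 13.5, 17.37 and 16.0 CPM in the wild type and at 6.78, 4.72 and 9.08 CPM in the double mutant. The groups did not overlap, and the gene fell by 1.152 on the log2 scale (SE 0.22, edgeR adjusted p = 0.0489). Its adjusted p is the highest of the 10, and the call was lost under 16 of 21 alternatives (adjusted p up to 0.449). AT1G75945, annotated as an uncharacterized protein, was at 0.385 and 1.103 CPM in wild type libraries 1 and 2, had no count in library 3, and reached 5.09, 7.64 and 4.94 CPM in the mutant. With 74 counts against 6 the ratio was 11.9 (95% exact interval 5.21 to 33.4, counting error only), and the fitted log2 difference was 3.49 ± 0.54 (edgeR adjusted p = 0.00355). Without wild type library 2 it was 4.48, and without wild type library 3 it was 3.06.

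No called gene other than B''α itself lay within 2 Mb of a targeted gene. Within 2 Mb of B''α 672 other genes were tested and none was called, 30 of them (4.46%) at an unadjusted p under 0.05. Within 2 Mb of B''β 666 were tested and none was called, 28 of them (4.204%) at that p. Both shares are close to the 4.02% over all genes. AT1G64795 and ILA share a locus, and AT1G75945 lies 4433 kb from AT1G64795 on the same chromosome. AT5G35940 starts 3652 kb from the start of B''α on chromosome 5.

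The 10 genes that come next by unadjusted p, without overlap between the genotypes, did not pass. Besides B''β they hold 5 genes for late embryogenesis abundant (LEA) or Em proteins, hydrophilic proteins that protect drying seeds: LEA4-5, LEA18, EM1, AT3G02480 and AT1G72100. AT3G03341, annotated as a cold-regulated protein, had the same pattern. The other 3 were higher in the mutant. LCR67, a plant defensin gene also known as PDF1.1, stood at 38.9, 31.99 and 31.6 CPM in the wild type and at 92.9, 56.2 and 66.9 CPM in the mutant (log2 1.04 ± 0.21, edgeR adjusted p = 0.0691). Its position on chromosome 1 (28472357 to 28472898) is near AT1G75945. Of 7 genes tested in the 43.6 kb from one to the other these 2 had an unadjusted p under 0.05 (all genes 4.02%). These 2 genes set the ends of that stretch, so the count depends on that choice. CDEF1, which encodes a cutinase, was at 138.9, 103.1 and 104.3 CPM against 152.3, 165.2 and 174.5 CPM (log2 0.50 ± 0.10, edgeR adjusted p = 0.0704). AT3G29644, a non-coding RNA gene on chromosome 3 (11498879 to 11501424) beside AT3G05945, was at 2.31, 2.48 and 2.19 CPM against 5.09, 6.74 and 7.70 CPM (log2 1.501 ± 0.36, edgeR adjusted p = 0.316).

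Of these 10, LCR67 and CDEF1 passed when the 2 dark libraries described later as standing apart were left out. LCR67 then had a log2 difference of 1.19 (edgeR adjusted p = 0.00339) and CDEF1 of 0.62 (2.70e-04). In that fit 11 genes were called, of which 8 were among the 10 main calls. LCR67 also passed without wild type dark library 1 (edgeR adjusted p = 0.0341), double mutant dark library 2 (0.0343) or wild type red light library 3 (0.0121). CDEF1 passed without wild type dark library 1 (edgeR adjusted p = 6.90e-04). With only the 6 dark libraries and a replicate block LCR67 passed (edgeR adjusted p = 0.00598) and CDEF1 did not (0.889). LCR67 did not pass with DESeq2 (adjusted p = 0.412) or with limma-voom (adjusted p = 0.251).

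The genotype difference in red light shares no library with the dark comparison, although both draw on 1 estimate of the spread over 12 libraries. All 10 genes had the same direction there, and in all 10 the 3 mutant libraries did not overlap with the 3 wild type libraries, where 11.1% of tested genes showed no overlap. Of the 10, 8 were also called in red light, which is 80% of the dark calls and 53.3% of the 15 red light calls (0.0811% of genes tested). AT1G64795 stood at 0.49, 0 and 0.674 CPM in the wild type and at 31.1, 31.0 and 29.7 CPM in the mutant in red light (log2 6.12 ± 0.30, edgeR adjusted p = 1.12e-11). AT3G05945 had log2 differences of −1.045 without and −1.065 with red light. The 2 genes called in the dark alone were the defensin-like AT4G11393 (0.65 ± 0.16 in red light, edgeR adjusted p = 0.268) and AT3G05730 (−0.26 ± 0.07, 0.586).

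The difference between the dark and the red light genotype effects was tested directly. No gene passed with edgeR (0% of genes, lowest adjusted p = 0.491), and 613 genes (3.32%) had an unadjusted p under 0.05. DESeq2 called 1 gene and limma-voom none. Among the 10 the smallest unadjusted edgeR values were 0.0277 for AT4G11393, 0.0289 for AT5G35940 and 0.0381 for AT3G05730, each with an adjusted p of 1. The lectin gene AT5G35940 had log2 differences of −1.152 in the dark and −1.94 in red light.

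**Figure D3:**
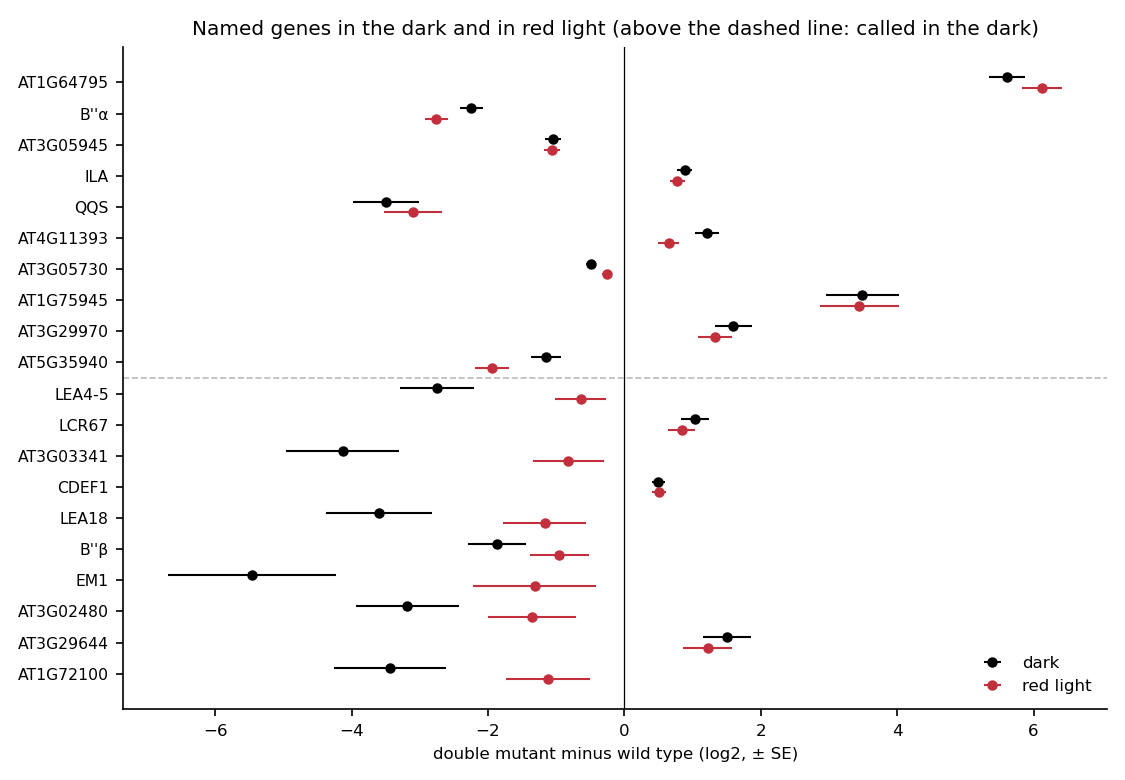
Double mutant minus wild type difference (log2, x axis) with its SE in the dark (black) and under red light (red) for the 10 called genes, above the dashed line, and for the 10 genes next by p. The 10 called genes keep their direction in both conditions, and LEA4-5, AT3G03341, LEA18, EM1, AT3G02480 and AT1G72100 have larger negative values in the dark than in red light.

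The spread among the 6 dark libraries was as wide within a genotype as between genotypes. Over 18487 genes the root mean square difference in log2 CPM was 0.384 to 0.448 for the 6 pairs of the same genotype (mean 0.419) and 0.368 to 0.462 for the 9 pairs of different genotype (mean 0.416). The ratio of the means was 0.994. The median gene had a genotype difference of 0.11 in size and a standard deviation within genotypes of 0.20, both on the log2 scale. All 15 pairs differed by more than counting noise, with a chi-square per degree of freedom of 1.54 to 4.65.

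Wild type library 1 and double mutant library 3 stood apart from the other 4, together. They formed the closest of all 15 pairs (0.368), with 23 of 13404 genes past 2-fold. Pairs that hold exactly 1 of these libraries had 114 to 218 genes past 2-fold, and the remaining pairs 24 to 75. The first principal component of the dark libraries held 31.1% of the variance and placed them at −28.4 and −28.5, against 8.36 to 20.9 for the others. The second held 21.3%, with the wild type at −23.4 to −5.66 and the mutant at 2.03 to 30.4. They were also the 2 dark libraries with most counts, 4979055 and 4773926 against 2874429 to 4254099. The part of depth in this was not tested.

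**Figure D4:**
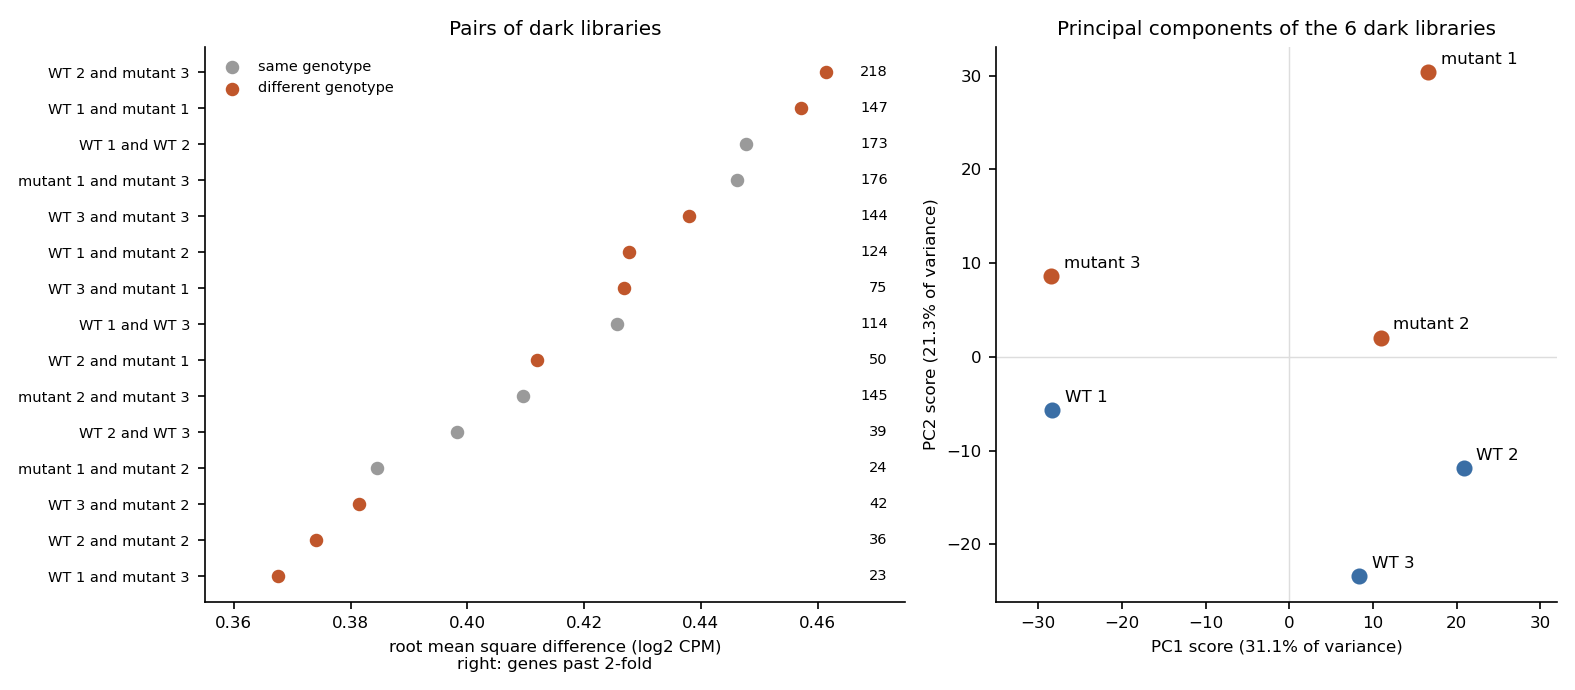
Left, root mean square difference in log2 CPM (x axis) for the 15 pairs of dark libraries, with the number of genes past 2-fold at the right; grey points are pairs of 1 genotype and orange points pairs of different genotype. Right, scores of the 6 dark libraries on the first and second principal components, wild type in blue and mutant in orange.

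With 1 CPM added to each value, 28 genes were at least 2-fold lower in both wild type library 1 and double mutant library 3 than in any other dark library (0.151% of genes tested), and 0 were at least 2-fold higher in both. The genes named here were chosen after their values were seen. AT5G24940, a protein phosphatase 2C gene, had the widest gap. It stood at 15.4, 53.2 and 40.7 CPM in the wild type and at 49.2, 42.9 and 10.9 CPM in the mutant (genotype difference log2 −0.10 ± 0.36). AT3G09250, a gene of the nuclear transport factor 2 family, stood at 529, 1462 and 1263 CPM and at 1270, 1316 and 507 CPM. ATM2, a myosin gene, stood at 247, 664 and 583 CPM and at 597, 559 and 200.2 CPM.

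In each of these genes the low values came from 1 library of each genotype, so the group means were nearly equal. None of the 28 was called. In the 6 red light libraries AT3G09250 stood at 1076 to 1473 CPM. The 6 genes with the lowest weights on the first component included AT5G24940 and AT3G19690, a CAP family gene at 1.54, 4.69 and 6.57 CPM and at 5.09, 5.62 and 0.592 CPM. AT1G58684, AT2G06625, AT3G27510 and AT2G24195 completed them, with levels of 0 to 29.8 CPM.

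The 6 genes with the opposite weights were high in wild type library 1 alone, and 4 of them code for LEA proteins (LEA18, AT3G02480, AT4G21020 and AT5G66780). AT3G02480 stood at 128, 16.5 and 22.5 CPM in the wild type and at 3.39, 6.97 and 8.09 CPM in the mutant. LEA18 stood at 60.1, 4.69 and 7.83 CPM and at 1.70, 2.47 and 2.17 CPM, and LEA4-5 at 74.1, 10.2 and 20.04 CPM and at 5.76, 6.52 and 4.54 CPM. Wild type library 1 was many times higher than its own replicates, which in turn were above all 3 mutant libraries. AT5G07330 and AT3G54940, the remaining 2 genes of the 6, stood at 11.4 and 14.1 CPM in wild type library 1 and at 0 to 1.57 CPM in the other 5.

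EM1, which encodes an Em protein of the mature seed, was at 18.9, 2.21 and 1.56 CPM in the wild type and at 0, 0.225 and 0.197 CPM in the double mutant. The fitted differences were −5.46 ± 1.23 for EM1, −3.60 ± 0.78 for LEA18, −3.18 ± 0.75 for AT3G02480 and −2.75 ± 0.54 for LEA4-5 on the log2 scale, with edgeR adjusted p of 0.226, 0.159, 0.316 and 0.0678. Without wild type library 1 the log2 differences were −3.33 for EM1, −1.5 for LEA18, −1.57 for AT3G02480 and −1.42 for LEA4-5 (edgeR adjusted p of 0.736, 0.736, 0.737 and 0.521). Without wild type library 2, which leaves library 1 a larger share of its group, all 4 passed (0.029, 0.00305, 0.029 and 6.48e-04), as did AT3G03341 (0.00224) and AT1G72100 (0.0479). LEA4-5, LEA18 and AT3G03341 also passed without wild type library 3 (0.0347, 0.039 and 0.039), and LEA4-5 without wild type red light library 2 (0.0422).

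Taking all genes annotated as LEA or dehydrin, a group formed after values were seen, 38 of 55 were tested. None was called, and 14 were lower in the mutant at an unadjusted p under 0.05 and 2 higher (all genes 2.09% and 1.93%). Their median difference was −0.17, beside −0.01 over all genes. Wild type library 1 was the highest of the 6 dark libraries for 19 of the 38 (50%), against 16.5% of all tested genes. Without that library the group's median was 0.00 and 7 members were lower at that p, and without both libraries that stand apart 4 were. Without wild type library 2 instead, 24 genes of the whole table were called, 19 lower in the mutant, and 11 of the 24 were LEA or dehydrin genes. Without the filter on low counts 69 genes were called, 16 of them of this group. With only the 6 dark libraries and a replicate block 9 were called, 3 of them of this group. In red light wild type library 2 was the high one, for LEA18 with 38.7 CPM against 13.96 and 16.0 CPM in its replicates.

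The upstream regions of LEA4-5 and LEA18 are shown because the response element of abscisic acid, the hormone of seed maturation and drought, has ACGTG at its core. Capitals mark each ACGTG found on either strand in the 250 bases before the annotated start (RefSeq TAIR10.1). Neighbouring matches on opposite strands can overlap as CACGTG, the G-box. LEA4-5 is read from chr5:2090431-2090680 and LEA18 from chr2:14863413-14863662, both on the minus strand.
LEA4-5: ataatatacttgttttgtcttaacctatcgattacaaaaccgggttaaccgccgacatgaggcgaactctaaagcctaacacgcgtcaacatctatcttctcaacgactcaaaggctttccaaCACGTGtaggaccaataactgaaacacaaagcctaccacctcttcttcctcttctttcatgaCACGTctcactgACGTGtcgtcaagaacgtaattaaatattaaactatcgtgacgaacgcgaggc
LEA18: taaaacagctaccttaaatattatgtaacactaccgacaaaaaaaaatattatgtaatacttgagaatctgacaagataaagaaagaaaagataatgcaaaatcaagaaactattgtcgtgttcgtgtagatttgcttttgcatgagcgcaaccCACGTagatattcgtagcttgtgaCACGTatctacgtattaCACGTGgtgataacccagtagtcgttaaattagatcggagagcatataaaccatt

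Each of these regions holds 4 matches. Of 27443 promoters of this length 22.9% hold at least 1 match, and of the 38 tested LEA and dehydrin genes 23 do (60.5%). At least 2 matches are held by 16 of the 38 and by 8.84% of all promoters. Among the 10 called genes QQS and AT4G11393 hold 1 match each and the other 8 none. A match describes these letters and is not a binding site.

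**Figure D5:**
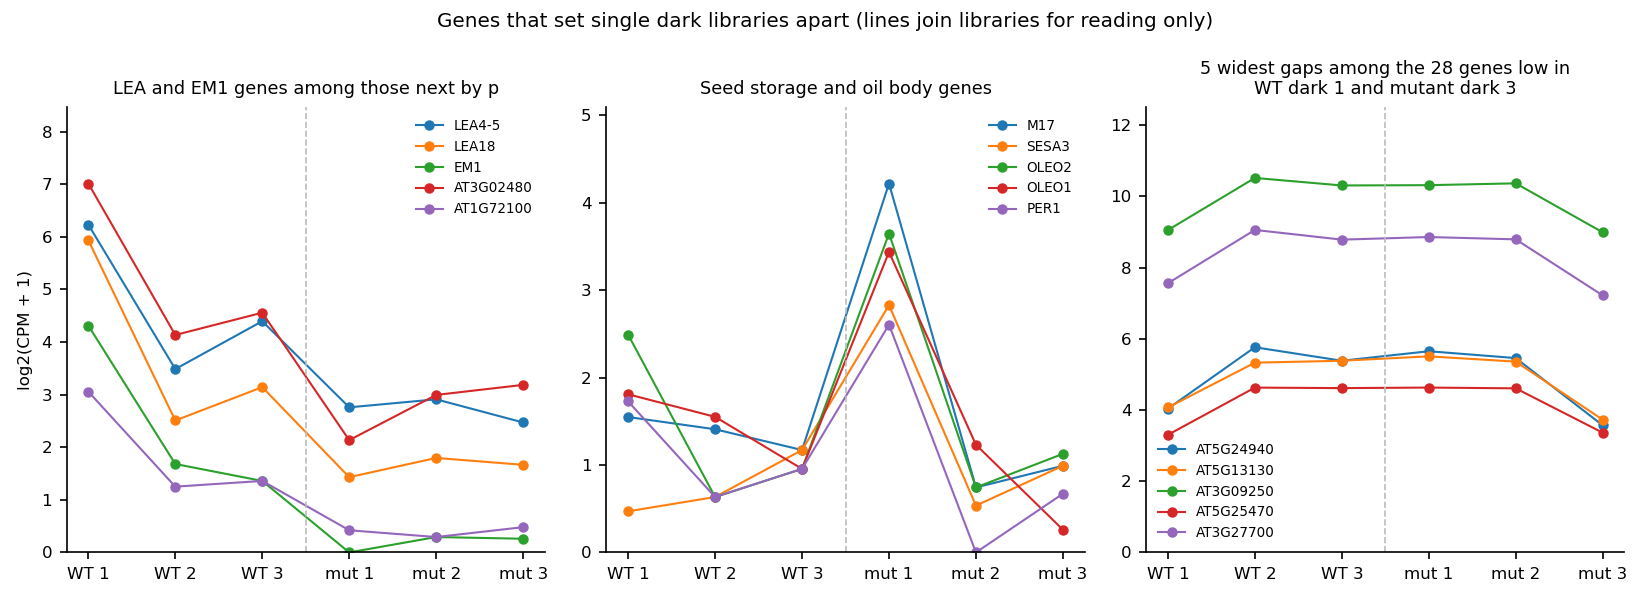
Level as log2(CPM + 1) on the y axis in each of the 6 dark libraries on the x axis. The left panel shows LEA and EM1 genes, highest in wild type library 1. The middle panel shows seed genes that were highest in double mutant library 1. Its title names storage and oil body genes, but M17 among them is an LEA-type gene. The right panel shows the 5 genes with the widest gap among those low in wild type library 1 and double mutant library 3.

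Other seed genes were high in a different library. Of 19 listed genes of the seed stage 11 were tested. The highest dark library was wild type library 1 for 6 of them and double mutant library 1 for the other 5. M17, an LEA-type gene of late embryos, stood at 1.93, 1.66 and 1.252 CPM in the wild type and at 17.63, 0.674 and 0.987 CPM in the mutant (log2 1.70 ± 0.83). The oleosin gene OLEO2, whose protein coats oil bodies, stood at 4.62, 0.552 and 0.939 CPM and at 11.5, 0.674 and 1.18 CPM, and the storage albumin gene SESA3 at 0.385, 0.552 and 1.252 CPM and at 6.10, 0.449 and 0.987 CPM. The genotypes overlapped for all 3.

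ABI3, a regulator of seed maturation, was lower in the mutant without a call, at 14.2, 5.52 and 8.14 CPM against 2.37, 4.72 and 5.73 CPM with overlap (log2 −1.10 ± 0.31, edgeR adjusted p = 0.541). The list's median was −0.47, with 4 members lower and none higher at an unadjusted p under 0.05 (all genes 2.09% and 1.93%). The 18 tested genes of seed oil breakdown, which dark-grown seedlings live on, had a median of 0.05, and ACX2, an acyl-CoA oxidase, had the smallest p among them (201, 206 and 193 CPM against 221, 229 and 208 CPM).

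Across 31 lists of 670 genes for light, hormone, nutrient, stress and cell type functions, 597 were tested and B''α alone was called. At an unadjusted p under 0.05 there were 36 (6.03%, beside 4.02% of all genes), 11 higher and 25 lower, and 55 did not overlap between genotypes (9.21%, beside 8.81%). The median difference of 26 of the 31 lists lay within 0.1 of 0 on the log2 scale.

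Mevalonate and sterol genes, the pathway of the enzyme that B'' subunits bind, had a median of 0.03 over 22 members, and summed to 2378 to 2435 CPM in the wild type and 2412 to 2478 CPM in the mutant. STE1, a sterol desaturase and the member with the smallest p, stood at 44.9, 38.6 and 42.3 CPM against 47.1, 47.2 and 63.8 CPM (log2 0.34 ± 0.12, edgeR adjusted p = 1.00), and its highest value was in double mutant library 3.

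Light genes were near 0 difference in the dark. Phytochromes and their interacting factors had a median of −0.09 (14 members, none at an unadjusted p under 0.05), and PHYE, a phytochrome, the smallest p (18.9, 22.9 and 23.5 CPM against 23.4, 17.5 and 13.4 CPM). Regulators of light signalling had a median of 0.01 (21 members), led by the B-box gene BZS1 (30.4, 33.1 and 33.2 CPM against 41.7, 37.3 and 37.9 CPM). Genes activated by the interacting factors had a median of 0.01 (13 tested of 14).

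In that list HB4, a homeobox gene of shade responses, was at 4.43, 8.55 and 6.26 CPM against 1.70, 3.82 and 2.76 CPM without overlap (log2 −1.13 ± 0.35, edgeR adjusted p = 0.893). Clock genes had a median of −0.02 (26 tested of 27), with PRR3, a clock regulator, at 7.70, 4.69 and 5.64 CPM against 2.71, 4.49 and 3.36 CPM. Flavonoid genes had a median of −0.06 (16 tested of 20), with the glucosyltransferase gene UGT78D2 at 11.9, 10.8 and 13.8 CPM against 5.43, 8.99 and 9.48 CPM.

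No gene of the photosynthetic apparatus was called, and most fitted differences were small and negative. Of 22 light-harvesting genes 21 had a negative difference (median −0.03), of 30 photosystem and Rubisco genes 26 (−0.05) and of 30 chlorophyll synthesis genes 28 (−0.06). The median over all tested genes was −0.01. In red light the medians of the 3 lists were positive, at 0.04, 0.03 and 0.01. Members of a list share the same libraries, so the counts of negative differences are not repeats of the genotype comparison. The summed light-harvesting level was 49617, 50933 and 51720 CPM in the wild type and 53213, 48273 and 46601 CPM in the double mutant, so double mutant library 1 was the highest and library 3 the lowest of all 6. Over these 3 lists 1 member had an unadjusted p under 0.05, HEME1, a uroporphyrinogen decarboxylase, at 196, 202 and 191 CPM against 156, 182 and 179 CPM (log2 −0.18 ± 0.08). HEME1 and LIN2, a coproporphyrinogen oxidase gene, were the 2 members of the 3 lists without overlap between genotypes. LIN2 was at 255, 249.6 and 234 CPM against 227, 229 and 228 CPM. Over all genes 4.02% had an unadjusted p under 0.05 and 8.81% did not overlap, so neither count sets these lists apart. PETE1, a plastocyanin (log2 −0.14 ± 0.07), and LHCA1, an antenna protein (−0.08 ± 0.06), led the other lists with overlapping libraries. LHCB1 genes, and those of the Rubisco small subunit, resemble each other closely, and their counts may be divided between copies.

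Hormone lists showed no call. Auxin genes had a median of −0.01 over 39 members, and LAX3, an auxin influx carrier, stood at 72.4, 68.9 and 69.2 CPM against 86.8, 85.2 and 77.2 CPM (log2 0.24 ± 0.10). Brassinosteroid genes had a median of 0.00 over 21 members, led by the co-receptor gene BAK1 (−0.14 ± 0.11). Gibberellin genes had a median of 0.04 over 23 members, and ethylene and apical hook genes −0.04 over 21, with the receptor genes GID1B (0.39 ± 0.18) and EIN4 (0.35 ± 0.16) as their leading members.

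Abscisic acid genes had a median of 0.06 over 32 members. At an unadjusted p under 0.05, 1 was higher and 3 were lower (all genes 1.93% and 2.09%). Their leading member LTI65, also called RD29B and induced by drought and abscisic acid, was at 15.8, 8.55 and 8.77 CPM against 7.12, 5.17 and 5.53 CPM (log2 −0.98 ± 0.28, edgeR adjusted p = 0.576), with its highest value in wild type library 1. Wall growth genes had a median of 0.02 over 32 members. XTH5, a xyloglucan enzyme gene, was highest in the same library (25.2, 8.27 and 10.96 CPM against 5.09, 8.54 and 8.09 CPM).

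Nutrient and stress lists were also without a call. Phosphate starvation genes had a median of 0.11 over 19 members in the dark and 0.19 in red light. Their leading member PS2 (AT1G73010), a pyrophosphatase gene of phosphate-starved plants, was at 2.31, 0.827 and 2.19 CPM against 0.339, 0.674 and 0.987 CPM in the dark (log2 −1.30 ± 0.58) and higher in the mutant in red light (1.79 ± 0.41), with overlap in the dark. Its interaction had an adjusted p of 1.00. Iron genes had a median of 0.00 over 10 members and sugar starvation genes −0.05 over 22, with FER3, a ferritin, at 102, 106 and 102 CPM against 95.6, 85.4 and 86.5 CPM and BGAL4, a beta-galactosidase, at 155, 164 and 177 CPM against 141, 147 and 152 CPM.

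Heat shock and chaperone genes had a median of −0.01 over 20 members, with ROF2 (AT5G48570, log2 −0.36 ± 0.24) leading. Touch and jasmonate genes had a median of 0.03 over 25, with the calmodulin-like gene CML38 at 0.84 ± 0.35. Defence genes had a median of −0.12 over 7, with the salicylic acid synthesis gene EDS16 at −0.32 ± 0.14. Nitrogen and glucosinolate genes had medians of 0.02 over 20 and 0.01 over 13 members, with UPM1 at −0.27 ± 0.13 and UGT74B1 at 0.28 ± 0.13.

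Markers of single cell types had summed levels that overlapped between the genotypes. The 10 root hair markers summed to 64.5 to 99.6 CPM in the wild type and 73.6 to 111 CPM in the mutant, the 9 endodermis markers to 914 to 943 CPM and 887 to 1004 CPM, and the 9 markers of dividing cells to 105 to 110 CPM and 104 to 116 CPM. The 7 stomatal lineage markers summed to 56.7 to 69.9 CPM and 56.6 to 64.4 CPM, and the 7 tested vascular markers to 300.3 to 318 CPM and 313 to 337 CPM. LRX1, an extensin of root hairs, was the 1 marker with an unadjusted p under 0.05 (6.93, 3.86 and 4.70 CPM against 5.77, 6.74 and 12.0 CPM). Over all genes 4.02% had such a p. The part of cell type in the called differences was not tested.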

How the data were processed

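The authors deposited 1 table of read counts per gene for 12 libraries. Tools named in the submitters' processing notes are HISAT2, HTSeq, FastQC and edgeR, with the build TAIR10 and no versions. The deposited counts were used as they stand. The HTSeq summary lines were left out of library sizes and tests. Of 33655 genes 32548 carried locus identifiers, and all of these were matched to the TAIR10.1 annotation.

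The main test was edgeR 4.0.16 (R 4.3.3) with trimmed mean scaling, a filter at a minimum count of 10, 1 term for each of the 4 groups over all 12 libraries and the quasi-likelihood test with Benjamini-Hochberg adjustment over 18487 genes. SEs were derived from the log2 difference and its F value. Levels are CPM on the scaled library sizes, and spread between libraries used log2 CPM with a prior count of 2. DESeq2 1.42.0, limma 3.58.1, other scalings and filters, a replicate term, and leaving out libraries were the alternatives. Leaving out both dark libraries that stand apart was among them. The fit was tested on simulated data. Exact intervals on pooled counts and limits for a count of 0 cover counting error only.

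The comparison, the gene lists and the tests were chosen with earlier results of these data known. Named genes are the called genes, the next 10 by unadjusted p without overlap, the leading member of each list and the 6 genes at each end of the first principal component. Genes outside this rule were chosen after their values were seen, among them PORA, PORB, AT1G54450, PP2A-1, ABI3, M17, OLEO2, SESA3 and the LEA and defensin groups formed by annotation.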

Additional observations from a re-analysis of the deposited data

Results flagged for a closer look

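For 2 leading list members every double mutant library was on one side of the wild type in the dark and on the other side in red light, which is why they are given here. Leading members have the smallest dark p of each of 31 lists, so their separation in the dark depends on that choice. Over all genes 8.81% did not overlap in the dark and 11.1% did not in red light. GID1B, a gibberellin receptor gene, stood at 10.6, 8.83 and 10.6 CPM in the wild type and at 15.3, 13.5 and 11.5 CPM in the double mutant in the dark, a log2 difference of 0.39. In red light it was lower in the mutant by 0.30, and the difference between both effects had an unadjusted p of 0.0125 and an adjusted p of 1 with edgeR. EIN4, an ethylene receptor gene, stood at 10.6, 12.4 and 10.96 CPM and at 13.9, 15.7 and 13.4 CPM in the dark, a log2 difference of 0.35. In red light it was −0.20, and the difference between both effects had an unadjusted p of 0.0321 and an adjusted p of 1 with edgeR. Neither passes the correction over all genes.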

How the results depend on the processing

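AT1G64795, B''α, AT3G05945 and ILA were called under all 21 alternatives and AT1G75945 under all 20 in which it was tested. Without the filter on low counts the dark calls were 24 higher and 45 lower, the red light calls 29 and 39, the interaction calls 20 and 8, 12 list members were called, and B''β passed (log2 −1.87). With only the 6 libraries of a contrast the red light calls were 19 higher and 24 lower, and with a replicate block added 23 and 33, with 3 list members called in the dark. Without both dark libraries that stand apart they were 21 and 25, and the interaction calls 1 and 1. DESeq2 gave 1 interaction call. Leaving out 1 library gave 4 to 8 higher and 4 to 19 lower calls in the dark, 3 to 11 and 5 to 7 in red light, 0 to 2 and 0 to 1 for the interaction, 1 to 4 list members, and log2 differences of −2.32 to −2.15 for B''α and −2.10 to −1.72 for B''β. The median of the LEA and dehydrin genes ranged from −0.259 to 0.00275 when 1 library was left out, the latter without wild type library 1. The defensin-like median of 0.13 turned to −0.0388 without the filter, −0.0197 without wild type library 1, −0.0236 without double mutant library 2 and −0.0943 without both libraries that stand apart. The cause was not tested. Replicate numbers did not pair the dark samples (correlations of −0.166, 0.15 and −0.11). A replicate block over 12 libraries left all 10 dark calls and gave 6 higher calls in red light. With the block and only the 6 dark libraries 9 genes were called, of which 5 were among the 10. QQS, AT4G11393, AT3G05730, AT3G29970 and AT5G35940 lost their calls there. The interaction could not be run on 6 libraries. Depth limits genes under about 1 CPM.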
